A study of Mus musculus with 22 samples.

Results

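Interferon-stimulated genes were followed in mouse fibroblasts that carried 4 different short hairpin RNAs (shRNAs), as a check of whether the hairpins themselves were accompanied by an interferon response. The set was defined by gene names, with no threshold on measured values, and held 10 genes, namely Ddx58, Irf7, Irf9, Isg15, Ifit1, Ifit3, Bst2, Rsad2, Usp18 and Oasl2. Of these, 4 had values in the tables used here, among 10516 genes in all: Ddx58, Isg15, Ifit3 and Bst2. The other 6, Irf7, Irf9, Ifit1, Rsad2, Usp18 and Oasl2, had no values in these tables and were not analysed here, so that every statement below is about the 4 measured genes.

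Interferons are cytokines that vertebrate cells release when nucleic acid sensors such as RIG-I, encoded by Ddx58, meet foreign RNA. Binding of type I interferon to its receptor activates the kinases JAK1 and TYK2 and, through them, transcription factors that bind a promoter element called the interferon-stimulated response element (ISRE) and switch on a broad antiviral programme. Double-stranded RNA, shRNAs included, can be read by the same sensors, which is why interferon-stimulated genes are a common control in knockdown experiments.

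The cells were NIH3T3, an established mouse fibroblast line. They had been transduced with lentiviral pLKO.1puro vectors and selected with puromycin, and all received cycloheximide at 100 µg/ml for 2 min before lysis. The groups were Denr shRNA1 (3 lysates) and Denr shRNA2 (3 lysates), which target the reinitiation factor DENR, and the controls Gfp shRNA (2 lysates) and scramble shRNA (3 lysates). Each of the 11 lysates gave a ribosome footprint library (RPF-seq) and a total RNA library (RNA-seq), 22 libraries in all. Every group carried a hairpin vector, so an effect shared by all 4 shRNAs cannot be seen in these data, and each comparison below is of one hairpin with another.

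Libraries held 10927303 to 21649878 reads in RPF-seq and 8514080 to 20109700 reads in RNA-seq over coding sequences (CDS) and 5′ UTRs, and levels are in RPKM, reads per kilobase of the region and per normalized library size, on the authors' upper-quartile scale. Denr itself was at 40.5 ± 5.32 RPKM in Denr shRNA1 (SD, n = 3) and 17.9 ± 2.70 in Denr shRNA2 (n = 3), against 169 ± 6.32 in Gfp shRNA (n = 2) and 188 ± 2.45 in scramble shRNA (n = 3) in RNA-seq. The fibroblast markers fixed for the line were present in 11 of 12 cases, with a summed RNA level of 8943 to 11901 RPKM over the lysates. Of markers of other cell types, 2 of 8 macrophage genes (Lyz2 and Cd14), 1 of 6 epithelial genes (Cdh1) and 1 of 6 endothelial genes (Cdh5) had values.

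All 4 measured genes held an ISRE-like motif near their start, and these stretches are shown because the ISRE is the element that defines the pathway's target genes. The motif searched was 2 copies of GAAA with any 2 bases between them, or the reverse complement with TTTC in place of GAAA, on both strands, in the 250 bases before and 50 bases after each RefSeq gene start of GRCm38.p6. It was found in 1131 of 32851 such windows (3.44%), in 4 of the 4 measured genes, and in 6 of the 9 named genes that had a window. The stretches of 30 bases around the matches are given on the strand of the gene, with the matched bases in capitals; overlapping matches are joined.
Isg15 (chr4:156200871-156200900, minus strand, 78 bases before the start): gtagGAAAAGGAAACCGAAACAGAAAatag
Bst2 (chr8:71537580-71537609, minus strand, 130 bases before the start): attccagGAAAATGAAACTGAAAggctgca
Ifit3, upstream match (chr19:34583363-34583392, plus strand, 156 bases before the start): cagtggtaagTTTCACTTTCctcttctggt
Ifit3, downstream match (chr19:34583397-34583426, plus strand, 122 bases before the start): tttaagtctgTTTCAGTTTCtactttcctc
Ddx58 (chr4:40239804-40239833, minus strand, from base 3 after the RefSeq start): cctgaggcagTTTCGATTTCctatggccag

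Isg15 held 3 overlapping matches in the GAAA orientation and Bst2 held 2, whereas Ifit3 held 2 separate matches and Ddx58 held 1, all in the TTTC orientation. The Ddx58 match lies within the 5′ UTR and is followed closely by an upstream AUG, visible as atg in the stretch shown. A motif match is a description of the letters and does not show that a factor binds there.

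The measured genes were of low RNA abundance in the control cells. Ddx58 (chr4:40203773-40239828, minus strand, GRCm38), which encodes the cytosolic RNA sensor RIG-I, averaged 5.61 ± 0.969 RPKM in RNA-seq over the 5 control lysates. Isg15 (chr4:156199424-156200818, minus strand), a ubiquitin-like protein that is conjugated to target proteins during the antiviral response, averaged 6.98 RPKM, and Bst2 (chr8:71534255-71537456, minus strand), or tetherin, which holds budding virions at the cell surface, averaged 4.43 ± 1.74 RPKM. Ifit3 (chr19:34583531-34588731, plus strand), a tetratricopeptide repeat protein that acts with IFIT1 on viral RNA, averaged 0.911 ± 0.258 RPKM. These RNA levels stood at the 14.5th, 17.5th, 11.5th and 1.74th percentile of all 10516 genes, in the order given, against a median gene at 28.3 RPKM. In counts, Ddx58 rested on 124 to 387 RNA reads and 134 to 348 footprints per library, Isg15 on 27 to 103 RNA reads and 89 to 253 footprints, Bst2 on 10 to 57 and 35 to 73, and Ifit3 on 9 to 28 and 4 to 20. Ifit3 was thus the least precisely measured.

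Ifit3 has a near-identical neighbour, Ifit3b. The 2 coding sequences matched at 1198 of 1209 positions (99.1%), and 931 of 1180 windows of 30 bases in the Ifit3 CDS (78.9%) also occurred in Ifit3b, so that a read of that length from these windows matches both genes. The values of Ifit3 and Ifit3b are therefore uncertain, and their sum was tested as well, an alternative chosen after the data were seen.

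The comparison made by the design is Denr knockdown against control, 6 lysates against 5. None of the 4 genes passed the false discovery rate (FDR) of 0.1 in RNA abundance, where 3.55% of all genes did, in CDS footprints, where 10.0% did (5.47% higher and 4.55% lower), or in translation efficiency, where 0.475% did (limma on log2 values, Benjamini-Hochberg adjustment over all genes). At an unadjusted limma p under 0.05 the counts were 0, 1 and 0 of 4 in these measures. The share of all genes under that threshold was not counted, here or in the comparisons below. Voom on reads recovered from the RPKM values called 0 of 4 in RNA and in footprints, where it called 389 and 1152 genes in all. The RNA levels of the 4 genes were nonetheless all higher on average in the knockdown lysates, by 0.18 to 0.37 on the log2 scale, with a median of 0.36 against 0.03 for all genes. This shared direction depended on the hairpins included: with Gfp shRNA alone as control it turned for Bst2 (-0.18) and Ddx58 (-0.0408), and with Denr shRNA2 alone as knockdown Ddx58 was at -0.000276. In lysates of whole cultures, fewer expressing cells and less RNA per cell cannot be told apart.

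For the sensor Ddx58, RNA was at 6.71, 7.55 and 7.26 RPKM in Denr shRNA1 and at 5.32, 6.57 and 4.87 RPKM in Denr shRNA2. In the controls it was at 5.95 and 7.07 RPKM with Gfp shRNA and at 4.77, 4.72 and 5.52 RPKM with scramble shRNA. The knockdown and control ranges overlapped, the difference was 0.18 (log2, SE 0.14, limma adjusted p = 0.560), and its 95% interval ran from -0.12 to 0.48. Ddx58 footprints were at 6.72, 6.80 and 5.46 RPKM in Denr shRNA1, 4.27, 5.85 and 4.34 in Denr shRNA2, 6.58 and 5.43 in Gfp shRNA, and 4.28, 4.20 and 3.97 in scramble shRNA. The 3 scramble lysates were low and close together, with replicate 1 of Denr shRNA2 within their range, while Gfp shRNA spanned nearly the same range as Denr shRNA1, and the knockdown difference was 0.19 (SE 0.16, adjusted p = 0.493).

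For Isg15, RNA was at 15.3, 8.86 and 8.06 RPKM in Denr shRNA1 and at 7.56, 7.43 and 7.95 RPKM in Denr shRNA2. The controls were at 8.84 and 7.09 RPKM with Gfp shRNA and at 5.60, 6.47 and 6.92 RPKM with scramble shRNA. Replicate 1 of Denr shRNA1 stood apart from the other 10 lysates, which all lay between 5.60 and 8.86 RPKM. The difference of knockdown from control was 0.36 (SE 0.18, adjusted p = 0.335), with a 95% interval from -0.02 to 0.73. Isg15 footprints were at 28.2, 23.2 and 21.8 RPKM in Denr shRNA1, 21.7, 21.7 and 20.0 in Denr shRNA2, 27.5 and 27.7 in Gfp shRNA, and 16.3, 22.5 and 11.3 in scramble shRNA. Both Gfp shRNA lysates were close to the highest Denr shRNA1 lysate, scramble shRNA spread the most, and the knockdown difference was 0.18 (SE 0.19, adjusted p = 0.600).

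For Bst2, RNA was at 7.51, 5.98 and 6.86 RPKM in Denr shRNA1, 4.09, 3.48 and 5.66 in Denr shRNA2, 5.55 and 6.77 in Gfp shRNA, and 3.46, 3.95 and 2.40 in scramble shRNA. Denr shRNA1 and Gfp shRNA lay mainly in the upper part of the range and Denr shRNA2 and scramble shRNA mainly in the lower part, with knockdown and control lysates in each. The knockdown difference was 0.37 (SE 0.25, adjusted p = 0.505). Bst2 footprints were at 8.49, 10.3 and 5.44 RPKM in Denr shRNA1, 7.85, 7.97 and 6.84 in Denr shRNA2, 6.61 and 6.36 in Gfp shRNA, and 7.90, 5.91 and 4.59 in scramble shRNA. The knockdown and control ranges overlapped, although the 3 Denr shRNA2 lysates lay above both Gfp shRNA lysates, and the knockdown difference was 0.31 (SE 0.16, adjusted p = 0.245).

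For Ifit3, RNA was at 1.42, 1.25 and 1.90 RPKM in Denr shRNA1, 0.897, 0.917 and 0.900 in Denr shRNA2, 0.857 and 0.925 in Gfp shRNA, and 1.14, 0.506 and 1.13 in scramble shRNA. The 3 Denr shRNA1 lysates were above all 8 others, and the knockdown difference was 0.37 (SE 0.23, adjusted p = 0.455). Footprints of Ifit3 were at 0.950, 1.09 and 0.815 RPKM in Denr shRNA1, 0.658, 0.567 and 0.642 in Denr shRNA2, 0.391 and 0.646 in Gfp shRNA, and 0.293, 0.504 and 0.815 in scramble shRNA. Their difference of 0.53 (SE 0.23) was the largest of the 4 genes in footprints and had an unadjusted p of 0.0397 in the limma fit, with an adjusted p of 0.187. Summed with Ifit3b, the differences were 0.60 in RNA (SE 0.18, adjusted p = 0.107) and 0.61 in footprints (SE 0.21, adjusted p = 0.106).

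**Figure D1:**
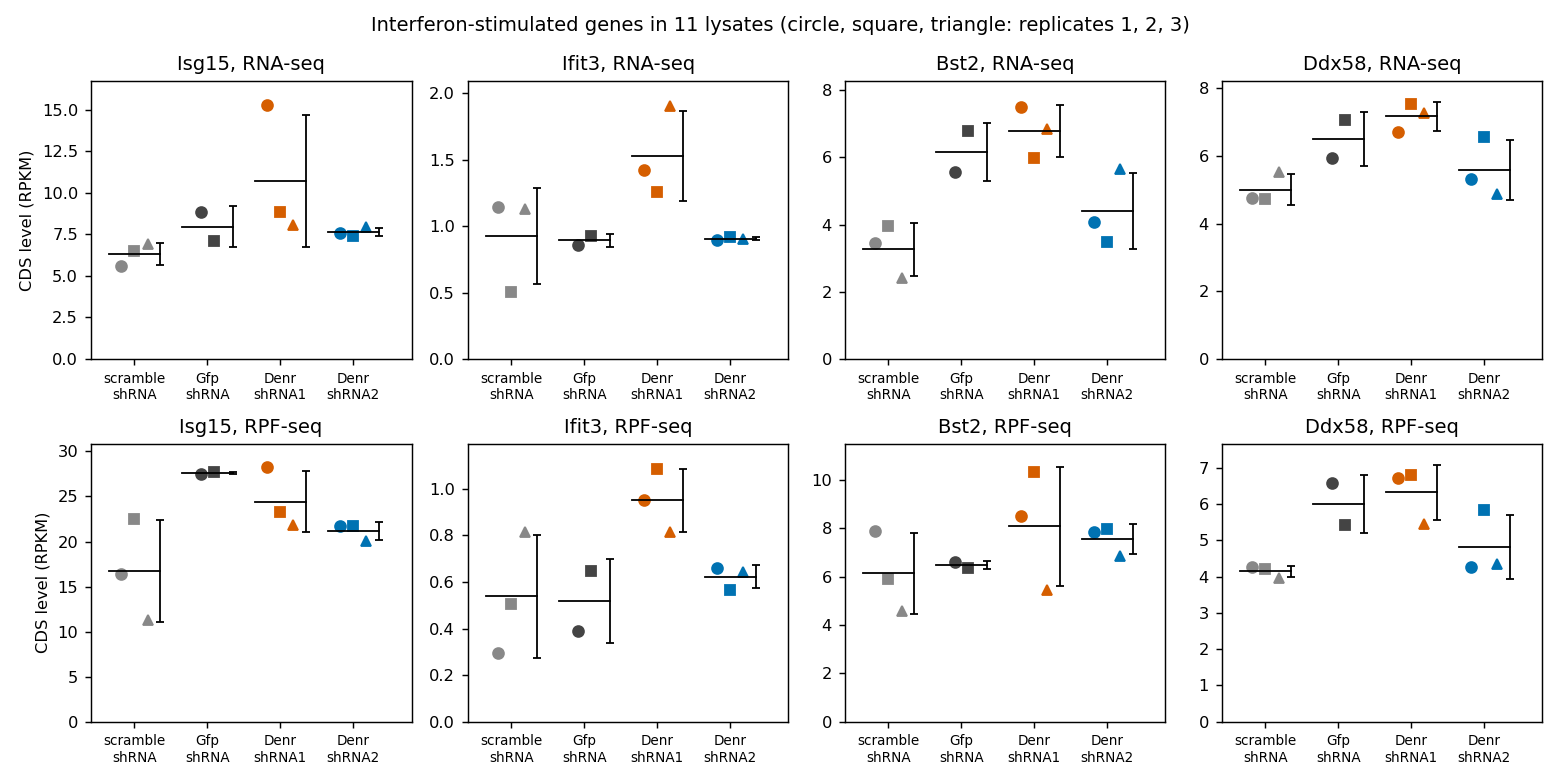
CDS level in RPKM (y axis, from 0) of the 4 measured interferon-stimulated genes in RNA-seq (top row) and RPF-seq (bottom row), by shRNA; each point is 1 lysate, horizontal lines are group means and the bars beside them are ± 1 SD. In RNA, the 3 Denr shRNA1 lysates were above the 3 scramble lysates for each of the 4 genes. The 2 Gfp shRNA lysates were also above them for Isg15, Bst2 and Ddx58, and the 3 Denr shRNA2 lysates for Isg15. The share of all genes separated in this way was not counted. The Isg15 value of 15.3 RPKM in Denr shRNA1 replicate 1 stood apart.

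The 4 hairpins were then compared with each other, since a response to a hairpin need not follow its target. In a moderated F-test over the 4 shRNAs, Bst2 differed in RNA abundance (adjusted p = 0.0408), whereas Ddx58 (0.125), Isg15 (0.212) and Ifit3 (0.269) did not pass, which is 1 of 4 genes where 8.62% of all genes passed. In CDS footprints Ddx58 (adjusted p = 0.0286) and Isg15 (0.0541) passed and Ifit3 (0.166) and Bst2 (0.453) did not, 2 of 4 where 30.8% of all genes passed. In footprints, differences among the hairpins were therefore common across the whole transcriptome. Without either lysate of Gfp shRNA the count in footprints was 1 of 4.

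In the order of mean RNA level, Isg15, Bst2 and Ddx58 ran from Denr shRNA1 at the top through Gfp shRNA and Denr shRNA2 to scramble shRNA at the bottom. Group means were 10.7 ± 3.97, 7.96 ± 1.23, 7.65 ± 0.270 and 6.33 ± 0.669 RPKM for Isg15. They were 6.78 ± 0.765, 6.16 ± 0.863, 4.41 ± 1.13 and 3.27 ± 0.793 RPKM for Bst2, and 7.17 ± 0.423, 6.51 ± 0.794, 5.59 ± 0.884 and 5.00 ± 0.451 RPKM for Ddx58. Ifit3 had a single high group, Denr shRNA1 at 1.53 ± 0.336 RPKM, over the other 3 at 0.891 to 0.925 RPKM. Its near-identical copy Ifit3b differed, with means of 1.64 RPKM in Denr shRNA1, 1.79 in Denr shRNA2, 1.30 in Gfp shRNA and 0.861 in scramble shRNA. The sum of Ifit3 and Ifit3b was at 3.17, 2.70, 2.19 and 1.79 RPKM in the same order, with both Denr hairpins above both controls. The single high group of Ifit3 was thus not seen in Ifit3b, and in the sum Denr shRNA1 was the highest of graded means. The part played by how reads were divided between the copies was not tested. No difference between neighbours in the orders of the 4 genes passed the FDR of 0.1. In the means of Isg15, Bst2 and Ddx58 the 2 control hairpins lay on either side of Denr shRNA2. For Ifit3 the order of these groups changed with the scale. In RPKM Denr shRNA2 lay between the controls, whereas in log2 it was above scramble shRNA by 0.04 and above Gfp shRNA by 0.02.

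Denr shRNA1 against scramble shRNA was the pairwise contrast with calls among the 4 genes in both assays. In RNA abundance 3 of 4 genes were higher, where 10.4% of all genes were called and 7.30% were called higher: Bst2 by 1.05 (log2, SE 0.21, limma adjusted p = 0.0160), Isg15 by 0.70 (SE 0.20, adjusted p = 0.0729) and Ddx58 by 0.51 (SE 0.13, adjusted p = 0.0500). The difference for Ifit3 was 0.72 (SE 0.27, adjusted p = 0.144), and for its sum with Ifit3b it was 0.85 (adjusted p = 0.0558). In footprints 3 of 4 genes were higher, where 26.3% of all genes were called and 14.0% were called higher: Ddx58 by 0.59 (SE 0.14, adjusted p = 0.0134), Isg15 by 0.59 (SE 0.19, adjusted p = 0.0465) and Ifit3 by 0.80 (SE 0.29, adjusted p = 0.0795). Bst2 footprints differed by 0.38 (SE 0.22, adjusted p = 0.247).

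The calls differed in how far they depended on the method and on single lysates. Voom on recovered reads called 2 of 4 genes in each assay, without Isg15 in RNA (adjusted p = 0.102) and Ifit3 in footprints (adjusted p = 0.112). It called 995 genes in all in RNA and 2993 in footprints. Bst2 in RNA and Ddx58 in footprints were called after each of the 11 lysates was left out in turn, with adjusted p-values of at most 0.0494 and 0.0588. Isg15 in RNA was called in 4 of 11 cases, and the difference fell to 0.42 (adjusted p = 0.116) without Denr shRNA1 replicate 1 and had an adjusted p of 0.178 without scramble replicate 1. Ddx58 in RNA was lost without Denr shRNA1 replicate 2 or scramble replicate 1 or 2 (0.48, 0.48 and 0.47). Isg15 in footprints was lost without Denr shRNA1 replicate 1 (0.48) or scramble replicate 3 (0.34), and Ifit3 in footprints without Denr shRNA1 replicate 1 or 2 or scramble replicate 1 or 2, when it lay between 0.49 and 0.80.

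Denr shRNA2 against scramble shRNA, which uses the same control lysates, gave no call in either assay, where 9.74% of all genes were called in RNA and 28.4% in footprints. RNA differences were 0.42 for Bst2 (adjusted p = 0.274), 0.27 for Isg15 (0.482), 0.15 for Ddx58 (0.567) and 0.04 for Ifit3 (0.948). In footprints they were 0.39 for Isg15 (adjusted p = 0.159), 0.33 for Bst2 (0.314), 0.26 for Ifit3 (0.569) and 0.20 for Ddx58 (0.343). At an unadjusted p under 0.05 the count was 0 of 4 in both, and voom called 0 in RNA and 1, Isg15, in footprints (0.47, adjusted p = 0.0968). In this contrast voom called 1044 genes in all in RNA and 3140 in footprints. For these 4 genes the estimates were smaller than those of Denr shRNA1. Ifit3b went the other way in footprints, at 1.18 in Denr shRNA2 and 0.94 in Denr shRNA1 against scramble shRNA. A relation of the estimates to the remaining Denr level was not tested. Set directly against each other, however, Denr shRNA2 and Denr shRNA1 gave no difference past the FDR of 0.1 for any of the 4. At an unadjusted limma p under 0.05 the counts were 3 of 4 in RNA and 1 of 4, Ddx58, in footprints. The share of all genes under that threshold was not counted, so these counts have no background. Voom called 0 in RNA and Ddx58 in footprints (-0.42, adjusted p = 0.0762). Between the 2 Denr hairpins voom called 261 genes in all in RNA and 1030 in footprints. The RNA differences of Denr shRNA2 minus Denr shRNA1 were -0.68 for Ifit3 (95% interval -1.26 to -0.09, adjusted p = 0.306), -0.63 for Bst2 (-1.09 to -0.17, adjusted p = 0.213), -0.43 for Isg15 (-0.87 to 0.02, adjusted p = 0.398) and -0.36 for Ddx58 (-0.66 to -0.07, adjusted p = 0.270), and 2.06% of all genes were called. In footprints 9.69% of all genes were called, and the differences were -0.53, -0.05, -0.20 and -0.39, with adjusted p-values from 0.131 to 0.928.

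Gfp shRNA against scramble shRNA compares the 2 controls, neither of which targets Denr. Isg15 footprints were higher with Gfp shRNA by 0.77 (SE 0.21, adjusted p = 0.0630) and Ddx58 footprints by 0.52 (SE 0.16, adjusted p = 0.0869), 2 of 4 genes where 8.48% of all genes were called and 5.38% were called higher. In RNA, 0 of 4 were called where 0.704% of all genes were (0.533% higher), with Bst2 at 0.92 (SE 0.23, unadjusted p = 0.00233, adjusted p = 0.175), Ddx58 at 0.37 (unadjusted p = 0.0308, adjusted p = 0.445), Isg15 at 0.32 and Ifit3 at 0.03. Voom on recovered reads called 0 of 4 in RNA as well, and 54 genes in all. With only 2 Gfp lysates, both footprint calls were lost when either was left out (adjusted p = 0.185 and 0.246 for Isg15, 0.317 and 0.179 for Ddx58). The Ddx58 call was lost in 7 of the 11 cases of 1 lysate left out, lysates of other groups among them, and the Isg15 call in 2 of 11. Voom called both genes in footprints, among 1287 genes in all. Against Gfp shRNA, neither Denr hairpin gave a difference past the FDR of 0.1 for any of the 4 genes in either assay, where 1.02% and 0.846% of all genes were called in RNA and 5.02% and 3.70% in footprints, for Denr shRNA1 and Denr shRNA2. At an unadjusted limma p under 0.05, Ifit3 in Denr shRNA1 passed in both assays (0.0396 in RNA and 0.0327 in footprints), and voom called 0 of 4. Over all genes voom called 111 and 129 in RNA and 612 and 452 in footprints, for Denr shRNA1 and Denr shRNA2. The RNA differences of Denr shRNA1 minus Gfp shRNA were 0.70 for Ifit3, 0.38 for Isg15, 0.14 for Bst2 and 0.14 for Ddx58.

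**Figure D2:**
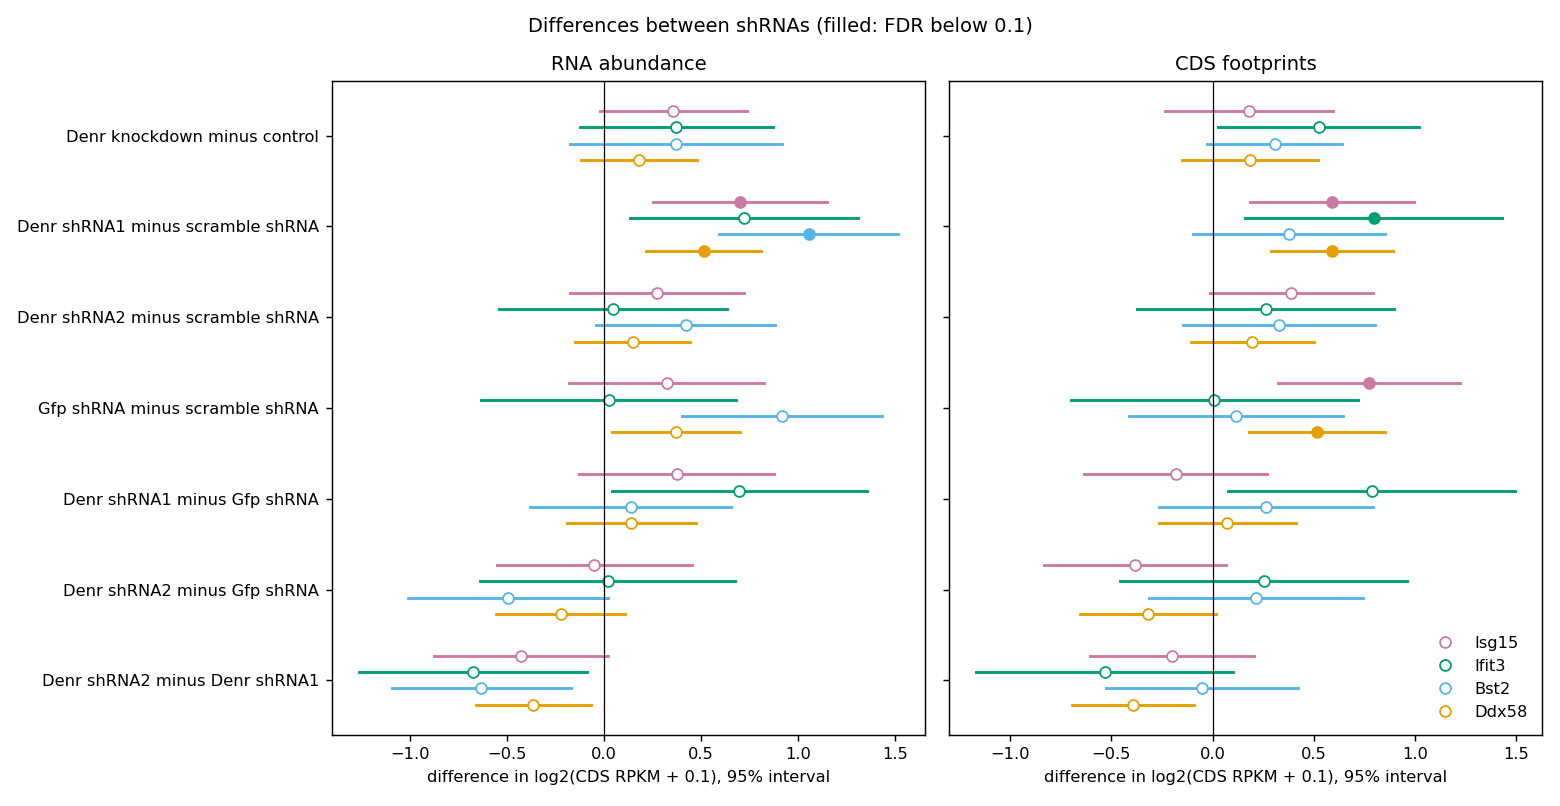
Differences in log2(CDS RPKM + 0.1) with 95% intervals (x axis) for the 4 measured genes in Denr knockdown minus control and in the 6 pairwise contrasts of the shRNAs (y axis), for RNA-seq (left) and RPF-seq (right); filled points passed the FDR of 0.1. Calls were found for Denr shRNA1 minus scramble shRNA, with Bst2 RNA highest at 1.05, and for Gfp shRNA minus scramble shRNA in footprints, with Isg15 at 0.77.

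Translation efficiency (TE), the log2 ratio of CDS footprints to CDS RNA of the same lysate, differed widely between the 4 genes. Isg15 had a log2 TE of 1.52 ± 0.483 over the 5 controls, at the 97.8th percentile of all genes, and Bst2 one of 0.56 ± 0.503, at the 80.6th percentile. Ddx58 was at -0.20 ± 0.235 and Ifit3 at -0.70 ± 0.635, against a median gene at -0.08. In the knockdown lysates the log2 TE was 1.34 ± 0.240 for Isg15, 0.50 ± 0.558 for Bst2, -0.20 ± 0.141 for Ddx58 and -0.55 ± 0.318 for Ifit3 (n = 6). The differences were -0.18, -0.06, 0.00493 and 0.15, with adjusted p-values of at least 0.994 in limma, and 0 of 4 had an unadjusted p under 0.05. With SEs of 0.11 to 0.28, the interval for Ddx58 ran from -0.24 to 0.25 and that for Bst2 from -0.67 to 0.54.

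**Figure D3:**
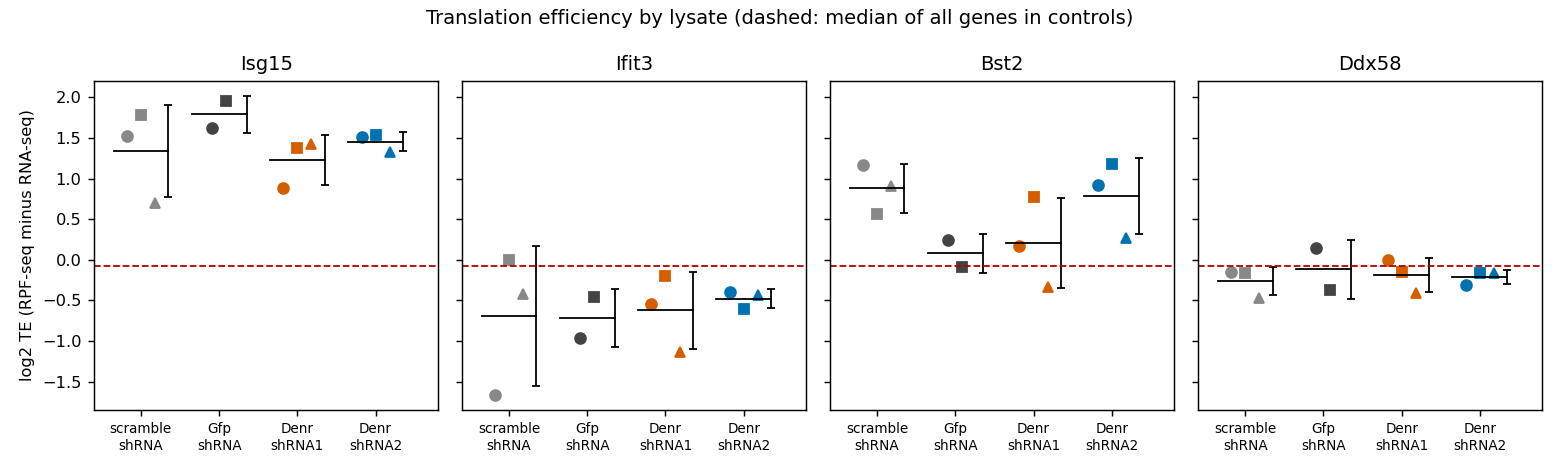
Log2 TE (RPF-seq minus RNA-seq, y axis) of the 4 measured genes by shRNA; points are lysates, lines are group means, bars are ± 1 SD, and the dashed line is the median of all genes over the controls at -0.08. Isg15 lay above that line in all 11 lysates, and its lowest values, 0.70 and 0.88, were in scramble replicate 3 and Denr shRNA1 replicate 1.

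DENR acts after the translation of upstream open reading frames (uORFs), so the 5′ UTRs of these genes bear on whether they could respond to its loss. Of the measured genes and Ifit3b, only Ddx58 had an AUG-started uORF in its GENCODE transcript, beginning at base 18 of a 5′ UTR of 132 bases and running 107 bases into the CDS in another frame; 50.3% of all genes with a 5′ UTR had at least 1. Isg15, Ifit3, Ifit3b and Bst2 had none. Only AUG starts of uORFs of at least 9 bases in 1 transcript per gene were counted. The study also counted CUG, GUG and UUG starts and required footprints on the uORF. It reports that uORFs overlapping the CDS were depleted among the transcripts most sensitive to DENR. In its regression, however, having such uORFs showed no association with the change in TE. For Clock, the study mapped DENR dependence to a uORF that overlaps the annotated CDS, with a further in-frame AUG downstream. Whether Ddx58 has an AUG placed in this way was not examined. Footprints in the 5′ UTR were few, at 0 to 15 per library for Ddx58, 3 to 19 for Isg15 and 0 to 1 for Ifit3, and Bst2 was listed at 0 in all 22 libraries. None of the 4 genes therefore reached the coverage set for testing the ratio of 5′ UTR to CDS footprints (at least 20 reads in 9 of 11 RPF-seq libraries), among 5175 genes that did, of which 18.1% were called. By lysate, Isg15 had 11, 19 and 8 footprints in its 5′ UTR in Denr shRNA1, 5, 11 and 10 in Denr shRNA2, 3 and 7 in Gfp shRNA, and 3, 3 and 11 in scramble shRNA. With the looser minimum of 1 RPKM, the ratio differed in knockdown by 1.03 for Isg15 (SE 0.47, adjusted p = 0.186) and by 0.92 for Ddx58 (SE 0.90, adjusted p = 0.482), neither past the threshold. Ddx58 had 15, 12 and 11 such footprints in Denr shRNA1 and 9, 12 and 8 in Denr shRNA2. It had 15 and 13 in Gfp shRNA and 10, 11 and 0 in scramble shRNA. The lysate with 0 enters the Ddx58 ratio through the pseudocount of 0.1 RPKM alone. The Ddx58 difference without that lysate was not fitted.

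Wider lists of the pathway were counted in the same fits. The lists share some genes, Stat2 among them, and their comparisons with scramble shRNA share its 3 lysates. Of 64 other interferon-stimulated genes with values, 12 were higher and 0 lower in RNA in Denr shRNA1 against scramble shRNA, where 7.30% of all genes were called higher. The median difference was 0.20 against 0.04 for all genes, and 52 of 64 differences were above 0, against 6044 of 10516 over all genes. The 3 largest of those called were Sp100, a nuclear body protein, at 1.02 (adjusted p = 0.0254), Tapbp, or tapasin, which loads peptides onto MHC class I, at 0.68 (0.00676), and Igtp, an interferon-inducible GTPase, at 0.61 (0.0747). The count was 6 higher and 0 lower for Denr shRNA2 against scramble shRNA, where 6.27% of all genes were called higher, led by Ifit3b at 1.10 (0.0714), Tapbp at 0.77 (0.00461) and Xaf1, a pro-apoptotic protein, at 0.68 (0.0112). For Gfp shRNA against scramble shRNA it was 0 in both directions, where 0.533% of all genes were called higher, with a median of 0.16. Differences above 0 numbered 38 of 64 for Denr shRNA2 and 44 of 64 for Gfp shRNA, against 5756 and 5467 of 10516 over all genes. The counts of genes called were unstable to single lysates. Over the lysates left out, the Denr shRNA1 count ran from 5, without scramble replicate 2, to 16. The Denr shRNA2 count fell to 2 or 3 without any of its own replicates and to 2 without scramble replicate 2, and rose to 12 without Denr shRNA1 replicate 1. The Gfp count rose to 4 without Denr shRNA1 replicate 1 and to 1 without Denr shRNA1 replicate 3.

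In footprints the same 64 genes gave 23 higher and 3 lower in Denr shRNA1, 13 higher and 6 lower in Denr shRNA2 and 10 higher and 1 lower in Gfp shRNA, each against scramble shRNA, with medians of 0.17, 0.12 and 0.20. The respective backgrounds of genes called higher were 14.0%, 15.2% and 5.38%. The largest were Ifit3b at 0.94, Tapbp at 0.76 and Sp100 at 0.75 in Denr shRNA1, Ifit3b at 1.18, Xaf1 at 0.88 and the apolipoprotein L family member Apol9b at 0.72 in Denr shRNA2, and Irgm2, an interferon-inducible GTPase, at 0.99, the inflammatory caspase Casp4 at 0.70 and the peptide transporter subunit Tap2 at 0.61 in Gfp shRNA. The Gfp count was 4 and 2 without Gfp replicate 1 and 2, and the Denr shRNA1 count was 15 without Denr shRNA1 replicate 2 or 3. Fibroblast markers moved in the same comparisons: 3, 2 and 2 of 11 were higher in RNA and 6, 4 and 4 of 11 in footprints in Denr shRNA1, Denr shRNA2 and Gfp shRNA, Col3a1 among them at 0.82 in RNA in Denr shRNA1. The RNA backgrounds of genes called higher were 7.30%, 6.27% and 0.533%, and 1 fibroblast marker, Vim, was lower in Denr shRNA1 footprints (-0.23, adjusted p = 0.0635). Summed fibroblast marker RNA ran from 9347 to 11901 RPKM in Denr shRNA1, 10427 to 10749 in Denr shRNA2, 10054 to 11263 in Gfp shRNA and 8943 to 10964 in scramble shRNA, and their part in the differences was not tested.

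**Figure D4:**
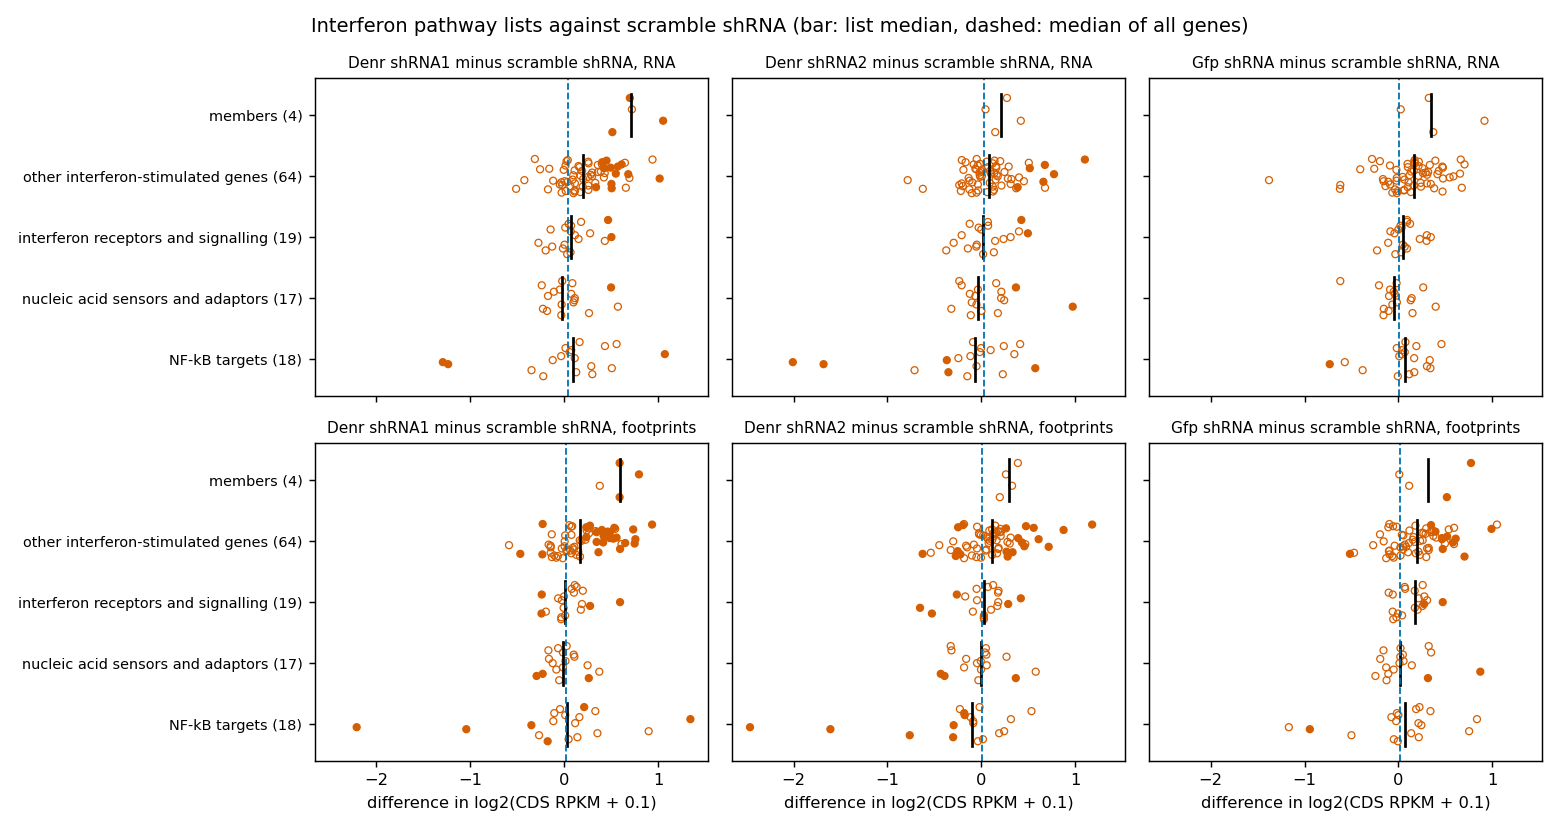
Differences in log2(CDS RPKM + 0.1) against scramble shRNA (x axis) for the 4 members and 4 wider lists (y axis, number of genes with values in brackets), for the 3 other shRNAs in RNA-seq (top) and RPF-seq (bottom); each circle is 1 gene, filled where it passed the FDR of 0.1, bars are list medians and dashed lines the median of all genes. The other interferon-stimulated genes had RNA medians of 0.20, 0.08 and 0.16. Of the NF-κB targets, Cxcl1 and Cxcl5 stood far to the left in both Denr hairpins, with Cxcl5 also called lower in Gfp shRNA (-0.73 in RNA and -0.94 in footprints). Others went the other way, with Tnfaip3 called higher in Denr shRNA1 (1.07 in RNA and 1.34 in footprints) and Birc3 in Denr shRNA2 (0.57 in RNA).

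In Denr knockdown against control, calls in these lists were few. Among the 19 genes of interferon receptors and signalling, the receptor chain Ifnar1 was higher in RNA by 0.41 (adjusted p = 0.00677) and the kinase Tyk2 by 0.40 (0.0411), where 2.68% of all genes were called higher, while in footprints the feedback inhibitor Socs3 fell by 0.38 (0.0263) and the kinase Jak1 by 0.23 (0.0406), where 4.55% of all genes were called lower and 5.47% higher. Ifnar1 TE was lower by 0.39 in the same comparison. None of the 17 sensors and adaptors was called in RNA, and in footprints Ifi204 fell by 0.29 and the helicase Dhx9 by 0.25, with 0 higher; this footprint count of 2 ranged from 0 to 3 over the lysates left out. Of the 64 other interferon-stimulated genes, 4 were higher in RNA (Tapbp at 0.56, Trim30a at 0.37, the exonuclease Isg20 at 0.33 and Ogfr at 0.32) and 3 in footprints (Xaf1 at 0.50, Tapbp at 0.50 and Ogfr at 0.31), and 0 were lower in either. The RNA count became 9 with scramble shRNA alone as control and 0 with Gfp shRNA alone, and ranged from 1 to 7 over the lysates left out, highest without Gfp replicate 1 and lowest without scramble replicate 2. The footprint count became 20 with scramble shRNA alone, 1 with Gfp shRNA alone and 12 with the replicate block, and ranged from 2 to 11, highest without Gfp replicate 2. Of 18 NF-κB targets, which RNA sensors also induce, the chemokine genes Cxcl1 and Cxcl5 fell by 1.42 and 1.17 in RNA and by 1.87 and 0.95 in footprints, Ccl7 fell by 0.42 in footprints, and 0 were higher. Cxcl5 was also lower in Gfp shRNA than in scramble shRNA, with differences of -0.73 in RNA (adjusted p = 0.0813) and -0.94 in footprints (adjusted p = 0.0500). Against scramble shRNA, 1 of these 18 targets (Tnfaip3) was higher and 2 lower in Denr shRNA1 RNA, where 768 and 328 of 10516 genes were. In Denr shRNA2 RNA 1 (Birc3) was higher and 4 lower, where 659 and 365 genes were. In footprints 2 were higher and 4 lower in Denr shRNA1 (1477 and 1292 of all genes), and 0 and 7 in Denr shRNA2 (1595 and 1390). Both measured macrophage markers were higher in footprints, Cd14 by 0.38 and Lyz2 by 0.22, a count of 2 that ranged from 1 to 2 over the lysates left out, and neither was called in RNA, where their sum ran from 49.2 to 70.4 RPKM in Denr shRNA1, 56.1 in all Denr shRNA2 lysates, 47.1 to 61.1 in Gfp shRNA and 41.7 to 46.9 in scramble shRNA. Their part in the results was not tested.

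A summary profile over the 11 RNA libraries was taken as the mean of the 4 genes' standardised log2 levels, although the group means of Ifit3 were not in the order of the other 3 genes. It was 1.37, 0.75 and 1.02 in Denr shRNA1, 0.07 and 0.30 in Gfp shRNA, -0.42, -0.23 and -0.26 in Denr shRNA2, and -0.80, -1.17 and -0.65 in scramble shRNA. In this mean the 4 hairpins did not overlap, whereas Denr shRNA2 and Gfp shRNA overlapped in RNA for each of the 4 genes. How often the means of other sets of 4 genes separate the hairpins was not tested. Of 10341 other genes with a mean of at least 1 RPKM, the 5 whose log2 RNA followed this profile most closely were the chemokine Ccl8 (Pearson r = 0.97, 11 libraries), the serine protease Prss23 (0.96), the cholesterol synthesis enzyme Dhcr7 (0.95), Rgl1 (0.95) and the myosin light chain kinase Mylk (0.94). Ccl8 averaged 30.1 RPKM in Denr shRNA1, 17.1 in Gfp shRNA, 9.10 in Denr shRNA2 and 5.83 in scramble shRNA, a wider range than any of the 4 genes. These correlations describe likeness among libraries of the same hairpins and carry no test.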

How the data were processed

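Values were the authors' deposited RPKM per gene for the CDS and the 5′ UTR, 22 tables in all. Per the labels and the methods of the study, reads were trimmed with cutadapt, aligned to GRCm38.p2 (mm10) with Bowtie2 2.2.1 and TopHat2 2.0.11, filtered for genes with few reads, scaled by upper quartile with edgeR separately for RPF-seq and RNA-seq, and divided by length. Whole reads could be recovered from the RPKM steps, within 0.001 read, in 231352 of 231352 values for the CDS and 228800 of 228800 for the 5′ UTR. Gene symbols were matched for 10508 of 10516 identifiers, and gene positions and uORFs are from GENCODE on GRCm38.

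Differences were fitted over all genes on log2(RPKM + 0.1) with limma 3.58.1 in R 4.3.3 (eBayes with trend, FDR 0.1), for 6 knockdown against 5 control lysates and with a mean for each of the 4 shRNAs, without a block for the replicate number. A fold change on this scale understates that of low genes. The code was tested on simulated data. Replicates were separate dishes per the study's methods; the labels speak of lysate pools.

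No measured value entered the rule for the members, but the members and lists were chosen with earlier results of these data known. Named genes were all members, Ifit3b, Denr, the list genes past the FDR in knockdown against control (up to 8 in RNA and 5 in footprints by size, with those beyond named where a count was 5 or fewer), up to 3 per list in a contrast with scramble shRNA, and the 5 genes most like the members. Fibroblast markers Col3a1 and Vim, Ifnar1 in TE, Socs3, Jak1, Ifi204, Dhx9, Ogfr and the macrophage markers in footprints were named after their values were seen. Alternatives were the pseudocount, a minimum of 1 RPKM, centring, no trend, voom on recovered reads, single control or Denr hairpins, the replicate block, each lysate left out and, added after seeing the data, Ifit3 summed with Ifit3b.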

Additional observations from a re-analysis of the deposited data

Results flagged for a closer look

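Among the 24 groups of values examined for single lysates far from the rest, 2 held one, and chance gives about 1 in 20. That rate holds for a single group, and the groups were not independent, since TE is computed from the RNA and footprint values. Both cases were Isg15 in replicate 1 of Denr shRNA1. Its RNA level of 15.3 RPKM was separated from the next of the 6 knockdown lysates by 0.818 of their whole range. Its log2 TE of 0.88 was the lowest of the 6, separated by 0.675 of their range. Its Isg15 footprints, at 28.2 RPKM, were also the highest of the 6 but not set apart, and its RNA value rested on 103 reads.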

How the results depend on the processing

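In Denr knockdown against control, 0 of the 4 genes were called in RNA, footprints or TE under the pseudocounts, the minimum of 1 RPKM, centring, no trend, voom, or with any lysate left out. In footprints 1 was called with scramble shRNA alone as control (Isg15, 0.49, adjusted p = 0.0735) and 1 with the replicate block (Bst2, 0.37, adjusted p = 0.0485). With Gfp shRNA alone as control the direction turned for Bst2 (-0.18) and Ddx58 (-0.0408) in RNA, for Isg15 (-0.28) and Ddx58 (-0.12) in footprints, and for Bst2 (0.42) and Ddx58 (-0.0820) in TE. With Denr shRNA2 alone it turned for Ddx58 in RNA (-0.000276), footprints (-0.00938) and TE (-0.00910), and for Bst2 in TE (0.23), and with scramble shRNA alone for Isg15 in TE (0.00375). Leaving out single lysates moved Isg15 footprints between -0.0225 and 0.30 and TE between -0.23 and 0.10 for Bst2, -0.0605 and 0.0914 for Ddx58, and -0.0870 and 0.33 for Ifit3. Counts over all genes depended strongly on the controls: 373 in RNA became 940 with scramble shRNA alone, 18 with Gfp shRNA alone, 159 with Denr shRNA1 alone and 1003 with the block, and ranged from 139 to 734 over the lysates left out; 1053 in footprints became 2651, 92 and 1940 with scramble alone, Gfp alone and the block, ranging from 484 to 1946; 50 in TE became 10, 0 and 1 with scramble alone, Gfp alone and Denr shRNA1 alone, ranging from 14 to 72; and 939 for the 5′ UTR ratio became 514, 47, 5, 9, 2418 and 131 with scramble alone, Gfp alone, each Denr shRNA alone, the block and the minimum of 1 RPKM, ranging from 38 to 1773. Voom called 389 genes in RNA and 1152 in footprints.

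Among the 4 shRNAs, the RNA F-test called 2 genes with the replicate block, against 1. Leaving out single lysates gave 1 to 3 calls in footprints over the 4 shRNAs, 1 to 3 in RNA and 1 to 4 in footprints for Denr shRNA1 against scramble shRNA, 0 to 2 in footprints for Gfp shRNA against scramble shRNA, and 0 to 1 in footprints for Denr shRNA2 against scramble shRNA and against Denr shRNA1. Denr shRNA2 against scramble shRNA had 1 footprint call with voom, with the block and with Ifit3 summed with Ifit3b, and Denr shRNA2 against Denr shRNA1 had 1 with voom and with the block. For Gfp shRNA against scramble shRNA, Ifit3 turned to -0.00694 in RNA and -0.00911 in footprints with a pseudocount of 1 RPKM, to -0.0112 in footprints with centring and to -0.13 with voom, and Bst2 footprints turned to -0.0572 with the block. Over the lysates left out, Ifit3 ranged from -0.30 to 0.22 in RNA and -0.0442 to 0.57 in footprints for Denr shRNA2 against scramble shRNA, and from -0.32 to 0.20 and -0.30 to 0.31 for Gfp shRNA; Bst2 footprints ranged from -0.0740 to 0.31 for Gfp shRNA against scramble shRNA and from -0.31 to 0.15 for Denr shRNA2 against Denr shRNA1. The cause of these changes was not tested. The replicate numbers are not stated to mark a shared day or batch: same-numbered lysates correlated in their deviations by -0.08 to 0.77 in RNA (15 pairs, 10 above 0.1), and 7 of 11 correlated best with their own number. The block raised the calls for the other interferon-stimulated genes in Denr shRNA1 RNA from 12 to 26. Depth limits Ifit3 most, with as few as 4 footprints in a library, and it was not tested in footprints under the minimum of 1 RPKM.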
